A study of Mus musculus with 18 samples.

Results

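Keratins are the intermediate filament proteins of epithelial cells, and cornification genes encode the proteins that turn a dying keratinocyte into the outer layer of the skin. The genes described here are the protein-coding rows of the deposited table whose symbol begins with Krt and a digit, Krtap, Lce or Sprr, together with Cdsn, Flg, Flg2, Ivl, Sbsn, Krtdap and Casp14. Of 26538 rows, 143 met this naming rule and 44 of them reached a mean of at least 0.5 FPKM (fragments counted on a gene, scaled to its length and to library size) over all 18 tumours. RNA was sequenced from mouse tumours that had been left untreated while another tumour of the same animal was ablated, with 3 tumours in each of 6 groups: cryo-thermal therapy with anti-PD-1, cryo-thermal therapy alone, radiofrequency ablation with anti-PD-1, radiofrequency ablation alone, cryoablation with anti-PD-1, and cryoablation alone. Cryoablation destroys tissue by cold and radiofrequency ablation by heat, while cryo-thermal therapy uses both. Anti-PD-1 is an antibody that blocks PD-1, a brake on T cells. All 6 groups had an ablation, so no comparison has an animal without one. The tumour line, the mouse strain and age, the tumour's site in the body and the time of resection are not stated in these sources. Tumours are numbered 1 to 3 within their group as the labels number them, and nothing in the labels says whether these are separate animals, so p-values measure the spread between these tumours only.

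A keratin filament is built from pairs, each of a type I and a type II keratin, and which pair a cell makes follows its place in the tissue. In mouse skin, Krt5 and Krt14 mark the basal layer, Krt1 and Krt10 the layers above it, Krt6a, Krt6b, Krt16 and Krt17 injured or rapidly renewing epidermis and parts of the follicle, and Krt71, Krt25 and Krt27 the inner root sheath that moulds a growing hair. Simple, single-layered epithelia and most carcinomas derived from them make Krt8, Krt18, Krt19 and Krt7 in their place. In the cornified layer, involucrin, the small proline-rich (Sprr) and the late cornified envelope (Lce) proteins are cross-linked under the plasma membrane, and corneodesmosin, the product of Cdsn, holds the dead cells together.

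The 44 members were grouped by gene name alone. Stratified epithelial keratins gave 9 of 16 rows, epidermal suprabasal keratins 3 of 5, simple epithelial keratins 2 of 7, inner root sheath keratins 3 of 7 and hair shaft keratins 0 of 16. Keratin-associated proteins, which bind the keratins of the hair shaft, gave 2 of 48 rows. The Lce family gave 11 of 21, the Sprr family 9 of 14 and the other cornified layer genes 5 of 7, with Flg at a mean of 0.182 and Flg2 at 0.0336 FPKM left outside. Just inside the limit lay Sprr2e at 0.533, Krt19 at 0.541 and Sprr2f at 0.563 FPKM. Just outside lay Lce1k at 0.487, Lce1i at 0.398 and Krtap22-2 at 0.384 FPKM. Without 3 tumours that were high in hair genes (cryo-thermal plus anti-PD-1 tumour 1 and cryoablation plus anti-PD-1 tumours 1 and 2), 33 of the 44 would have reached the limit. The other 11, among them all 5 inner root sheath and keratin-associated members, passed it through those tumours, all of which had received anti-PD-1, so a higher level with the antibody was built into their choice. Without a limit on the level, 136 of the 143 rows had a positive mean difference with anti-PD-1. This count is not free of those 3 tumours. Summed over all 48 keratin-associated rows, they had 31.9, 46.5 and 25.1 FPKM, against at most 9.01 in any other tumour. No share over all rows of the table is given beside the count.

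Most of these genes lie in arrays. By the RefSeq gene order of the reference annotation, 39 of the 44 members had another of the 143 rows as a direct neighbour. On chromosome 3 lay 21 members, the Sprr and Lce genes with Ivl, while chromosome 11 held 9 (type I keratins) and chromosome 15 held 8 (type II keratins). Promoter sequences of leading Sprr, inner root sheath and Lce members are shown to set these classes side by side. Each is the 250 bases before the transcription start, from RefSeq in build GRCm38.p6, read on the gene's own strand, with TATAAA and the AP-1 motif TGANTCA in capitals. AP-1 is a transcription factor family known for its part in epidermal differentiation. The Sprr promoters lie at chr3:92485882-92486131 (minus strand), chr3:92438780-92439029 (minus strand) and chr3:92338890-92339139 (plus strand).
Sprr1a: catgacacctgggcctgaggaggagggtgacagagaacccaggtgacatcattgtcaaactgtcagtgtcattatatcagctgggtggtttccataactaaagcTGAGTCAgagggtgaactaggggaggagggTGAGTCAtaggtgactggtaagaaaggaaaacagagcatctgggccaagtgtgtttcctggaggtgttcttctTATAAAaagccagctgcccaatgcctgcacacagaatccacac
Sprr1b: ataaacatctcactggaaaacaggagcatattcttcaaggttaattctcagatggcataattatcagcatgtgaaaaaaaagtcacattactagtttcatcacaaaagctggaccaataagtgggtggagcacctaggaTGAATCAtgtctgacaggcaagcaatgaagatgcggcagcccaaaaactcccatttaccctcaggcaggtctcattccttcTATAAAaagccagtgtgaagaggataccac
Sprr2d: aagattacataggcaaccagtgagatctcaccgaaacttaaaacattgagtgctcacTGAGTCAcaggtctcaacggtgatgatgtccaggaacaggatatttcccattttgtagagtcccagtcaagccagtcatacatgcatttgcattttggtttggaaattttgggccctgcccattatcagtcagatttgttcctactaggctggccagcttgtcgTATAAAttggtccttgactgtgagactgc
The inner root sheath windows lie at chr15:101743098-101743347, chr11:99322952-99323201 and chr11:99351119-99351368, all on the minus strand.
Krt71: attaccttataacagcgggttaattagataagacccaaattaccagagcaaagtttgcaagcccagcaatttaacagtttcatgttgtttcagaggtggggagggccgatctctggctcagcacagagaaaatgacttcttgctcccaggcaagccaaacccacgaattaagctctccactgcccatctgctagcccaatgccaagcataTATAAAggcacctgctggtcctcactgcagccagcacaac
Krt25: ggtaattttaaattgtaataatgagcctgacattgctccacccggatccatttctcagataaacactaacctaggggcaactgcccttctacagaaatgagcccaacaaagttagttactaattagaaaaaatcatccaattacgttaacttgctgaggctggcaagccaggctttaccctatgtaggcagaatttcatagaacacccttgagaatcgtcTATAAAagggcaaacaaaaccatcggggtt
Krt27: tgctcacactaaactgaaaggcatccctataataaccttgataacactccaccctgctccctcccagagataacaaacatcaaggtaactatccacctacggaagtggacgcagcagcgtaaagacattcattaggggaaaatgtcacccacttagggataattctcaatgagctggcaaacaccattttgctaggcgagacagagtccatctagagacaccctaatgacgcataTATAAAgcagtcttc
The Lce1b window lies at chr3:92656927-92657176 on the minus strand and holds neither motif.
Lce1b: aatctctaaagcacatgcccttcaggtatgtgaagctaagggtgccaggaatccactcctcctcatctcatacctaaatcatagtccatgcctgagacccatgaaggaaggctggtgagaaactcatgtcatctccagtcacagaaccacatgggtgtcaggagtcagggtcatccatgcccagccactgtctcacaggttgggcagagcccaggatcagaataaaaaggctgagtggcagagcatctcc
Windows of 300 bases, 50 of them after the start, were found for 34 of the 44 members and searched on both strands for 4 motifs: TATAAA (the TATA box), TGANTCA (AP-1), GGGCGG (bound by Sp1) and CACCC (bound by Sp and Klf factors). Each was counted by itself, also where matches of 2 motifs overlapped. The Krt14 window, which holds CACCC, is among those counted but did not match the gene's end in the annotation. TGANTCA was in 7 of 9 Sprr windows (77.8%), in 0 of 10 Lce windows and in 0 of 3 inner root sheath windows, against 7.81% of all 32851 windows. TATAAA was in 7 of 9 Sprr, 3 of 3 inner root sheath and 2 of 10 Lce windows, against 13.6% of all windows. GGGCGG was in 1 of 36 member windows, against 35.7% of all windows, and CACCC in 19 of 36, against 57.5%. A match describes letters and not a bound site.

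The keratins that mark carcinomas of simple epithelium were near 0 in these tumours. Krt8 ran from 0.0143 to 0.971 FPKM with a mean of 0.136, Krt18 had a mean of 0.0851 and Krt7 of 0.0734 FPKM, all below the limit for members. The highest value of each of the 3 was in radiofrequency tumour 3, at 0.971 FPKM for Krt8, 0.729 for Krt18 and 0.412 for Krt7, and that tumour also had the highest Krt19 at 2.44 FPKM, against 0.166 to 1.01 FPKM in the other tumours. The 13 other genes listed for simple epithelium and carcinoma were mixed: Cdh1 (E-cadherin) ran from 1.75 to 5.19 FPKM and Spint1, a membrane protease inhibitor, from 2.28 to 7.37 FPKM over the 18 tumours, whereas the adhesion molecule Epcam averaged 0.523 FPKM and Cldn7 0.00299 FPKM. Krt80, grouped with the simple epithelial keratins, was present in all 18 tumours. The mesenchymal filament gene Vim ran from 2095 to 2552 FPKM. Which keratins the tumour cells themselves made cannot be told from these levels. Among the 18 tumours, log2(FPKM + 1) of Krt8 had a Pearson r of 0.89 with Krt18, 0.88 with Krt7 and 0.80 with Krt19 (adjusted permutation p = 0.00407, 0.00351 and 0.0238 over 15 relations), with Spearman rho of 0.44, 0.49 and 0.24 (adjusted p = 0.114, 0.0785 and 0.385). Without the 2 tumours farthest from the median of Krt8, one of them radiofrequency tumour 3, r was 0.36, 0.23 and 0.18, so these values of r rested on those tumours. As deviations from the group means, with all 18 tumours kept, rho was 0.68, 0.73 and 0.56. Deviations in a group of 3 sum to 0 and are not independent, so no p-value is given for them. Without the 2 farthest tumours, rho of the levels was 0.20, 0.27 and 0.08, so the relations are not shown apart from those tumours. Krt8 had r = 0.38 with Krt14 and 0.05 with Epcam (adjusted permutation p = 0.146 and 0.864), with rho of 0.32 and 0.05.

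The members split into a few that every tumour carried and many that came and went together. Only 6 of the 44 were at or above 0.5 FPKM in all 18 tumours: the keratins Krt14, Krt16, Krt13 and Krt80, with Cdsn and the keratinocyte gene Sbsn (suprabasin). Of the 44, 5 overlap another gene, among them Sbsn (Gapdhs) and Krt80 (Gm35853 and Mir1941). Of their 50-base transcript stretches, Sbsn shared 13.3% with Tmem147os and Krt14 11.4% with Krt16. Strand is not given, so part of the level of Sbsn, Krt80 and Krt16 may belong to other genes. A set of 3 tumours was lowest in Krt5, at 0.012 FPKM in cryo-thermal plus anti-PD-1 tumour 3, 0.024 in cryo-thermal tumour 1 and 0.228 in radiofrequency plus anti-PD-1 tumour 3. In these 3, the same 6 members were at or above 0.5 FPKM in each, and 35 of the 44 were below it in each. There, 31, 27 and 25 members were listed at 0, against 0 to 16 in the other 15 tumours. Krt14, the type I partner of Krt5, was at 60.8, 58.0 and 40.2 FPKM in them, next to 27.5 to 244 FPKM in the rest. Krt80, a type II keratin of many epithelia, had 7.95, 7.59 and 5.86 FPKM there, and Krt13, a keratin of mucosal lining, had 3.51, 3.10 and 2.37 FPKM. Cdsn had 6.15, 9.00 and 16.6 FPKM, the last being its highest value of all 18. Of the basal epidermis genes that are not keratins, the integrin Itgb4 ran from 34.96 to 47.8 FPKM over all tumours, while the desmosomal gene Perp was as low as 0.0278 FPKM in 1 of them. The break between these 3 tumours and the rest was not sharp. They had 8, 9 and 7 members at or above 0.5 FPKM, next to 12 in cryo-thermal tumour 3 and 13 in radiofrequency tumour 2. Cryo-thermal tumour 3 also had the lowest sum over all members, at 64.4 FPKM. In bulk RNA, fewer cells of a type and less RNA per cell cannot be told apart.

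**Figure D1:**
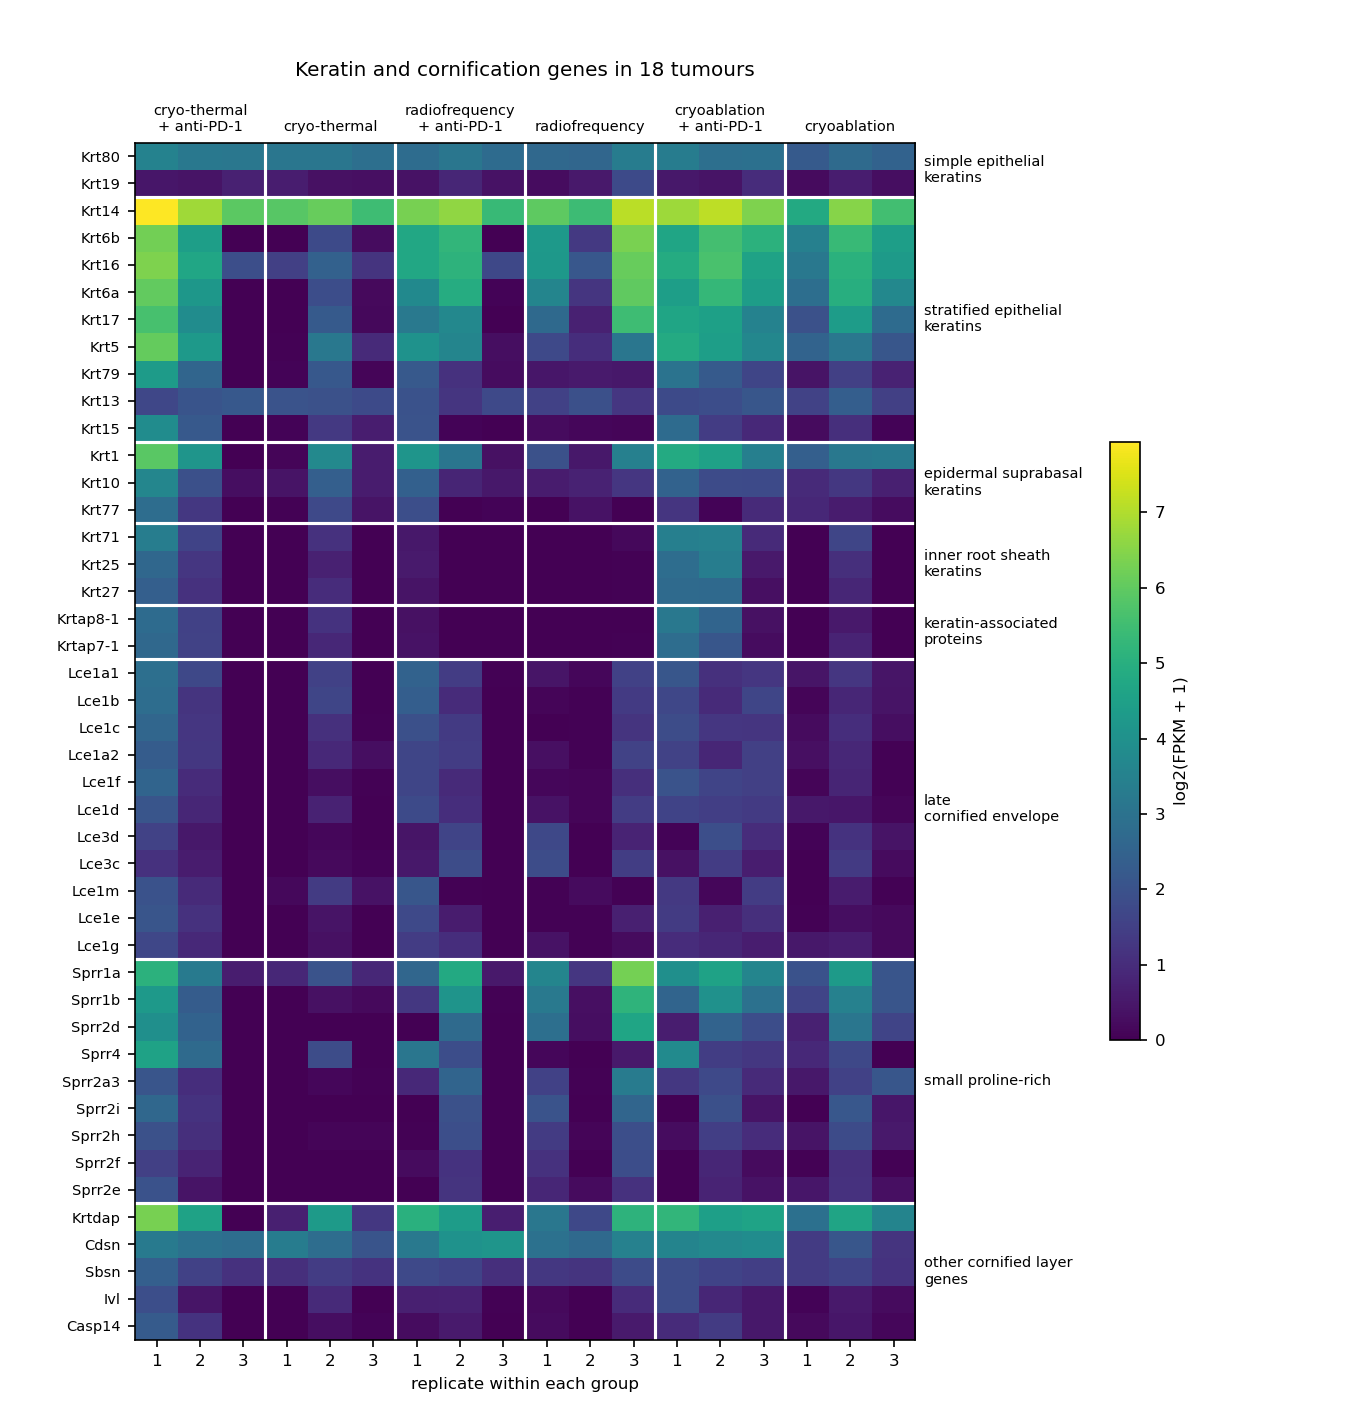
Levels of the 44 members in log2(FPKM + 1), 1 row per gene ordered by class and 1 column per tumour in 6 groups of 3. Krt14, Krt80, Krt13 and Cdsn are coloured in every column, whereas most other rows are dark in cryo-thermal plus anti-PD-1 tumour 3, cryo-thermal tumour 1 and radiofrequency plus anti-PD-1 tumour 3.

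Krt14 was the most abundant member, with a mean of 85.4 FPKM. It was at 244, 112 and 60.8 FPKM in cryo-thermal plus anti-PD-1 tumours and at 58.0, 67.5 and 43.0 in cryo-thermal tumours. Radiofrequency plus anti-PD-1 tumours had 78.4, 97.5 and 40.2 FPKM, and radiofrequency tumours 61.9, 42.6 and 139. Cryoablation plus anti-PD-1 tumours had 109, 140 and 83.5 FPKM, and cryoablation tumours 27.5, 88.7 and 44.9. In each of the 9 comparisons between 2 groups the values overlapped. Krt5, its partner, was at 66.3, 18.1 and 0.012 FPKM with cryo-thermal therapy plus anti-PD-1, and at 0.024, 8.04 and 0.939 with cryo-thermal therapy alone. It was at 15.4, 11.4 and 0.228 FPKM with radiofrequency plus anti-PD-1, and at 2.38, 1.07 and 7.75 with radiofrequency alone. With cryoablation plus anti-PD-1 it was at 27.9, 20.9 and 11.8 FPKM, all above the 4.74, 7.89 and 3.36 FPKM with cryoablation alone. Across the tumours the 2 partners were high and low together: r was 0.77 and rho 0.79 (adjusted permutation p = 0.000425 and 0.00039), and r was 0.84 without the 2 tumours farthest from the median of Krt5 and 0.61 without the 3 tumours high in hair genes.

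Of the keratins of activated epidermis, Krt6b averaged 24.3, Krt16 23.8, Krt6a 18.3 and Krt17 12.2 FPKM over the 18 tumours. Krt6b was at 75.4, 20.9 and 0 FPKM in cryo-thermal plus anti-PD-1 tumours, and at 0, 2.47 and 0.211 in cryo-thermal tumours. In radiofrequency plus anti-PD-1 tumours it was at 25.9, 36.7 and 0 FPKM, and in radiofrequency tumours at 18.6, 1.51 and 80.5. In cryoablation plus anti-PD-1 tumours it was at 24.6, 46.8 and 33.5 FPKM, and in cryoablation tumours at 9.88, 39.9 and 20.9. The cryo-thermal tumours without antibody thus had the lowest mean. Krt6a and Krt6b are close copies, sharing 43.6% and 44.5% of their 50-base stretches with each other in the reference transcripts, and Krt16 shared 37.6% with other genes, so reads may have been split between them. Krt6b had r = 0.85 and rho = 0.76 with Krt5 (adjusted permutation p = 7.5e-05 and 0.00095), and r = 0.78 without the 2 tumours farthest from the median of Krt5. They were not in fixed proportion: over the 14 tumours with Krt5 of at least 1 FPKM, the ratio of Krt6b to Krt5 ran from 0.307 in cryo-thermal tumour 2 to 10.4 in radiofrequency tumour 3. Krt16 had r = 0.85 and rho = 0.81 with Krt5 (adjusted permutation p = 9e-05 and 0.00039), and r = 0.81 without those 2 tumours. Krt79, known from the mouse hair canal and sebaceous duct, and Krt15, a keratin of basal cells and the follicle bulge, peaked in cryo-thermal plus anti-PD-1 tumour 1 at 19.3 and 13.7 FPKM against medians of 0.942 and 0.373 FPKM. Krt13 had no detectable relation to Krt5, with r = -0.10 and rho = -0.02 (adjusted permutation p = 0.749 and 0.948), and lay between 1.32 and 4.13 FPKM in all tumours. The relations of Krt5 with Krt6b, Krt16 and Krt13 were chosen after the data were seen. Their p-values therefore describe these tumours and do not test a prediction.

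The suprabasal keratin Krt1 was at 58.4, 16.6 and 0 FPKM in cryo-thermal plus anti-PD-1 tumours, and at 0.0865, 12.4 and 0.514 in cryo-thermal tumours. It was at 16.7, 7.55 and 0.281 FPKM in radiofrequency plus anti-PD-1 tumours, and at 2.92, 0.432 and 9.89 in radiofrequency tumours. In cryoablation plus anti-PD-1 tumours it was at 27.6, 22.1 and 9.67 FPKM, above the 4.32, 7.97 and 8.40 of cryoablation tumours. Krt10, its type I partner, had a mean of 2.23 FPKM against 11.4 for Krt1, and Krt77 a mean of 0.960. Krtdap, a secreted product of differentiating keratinocytes with a mean of 19.0 FPKM, had the highest r of the 9 relations added after the data were seen, with r = 0.95 and rho = 0.88 to Krt5 (permutation p = 1e-05 each, the smallest value these permutations can give, adjusted p = 5e-05), and r = 0.93 without the 2 farthest tumours.

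**Figure D2:**
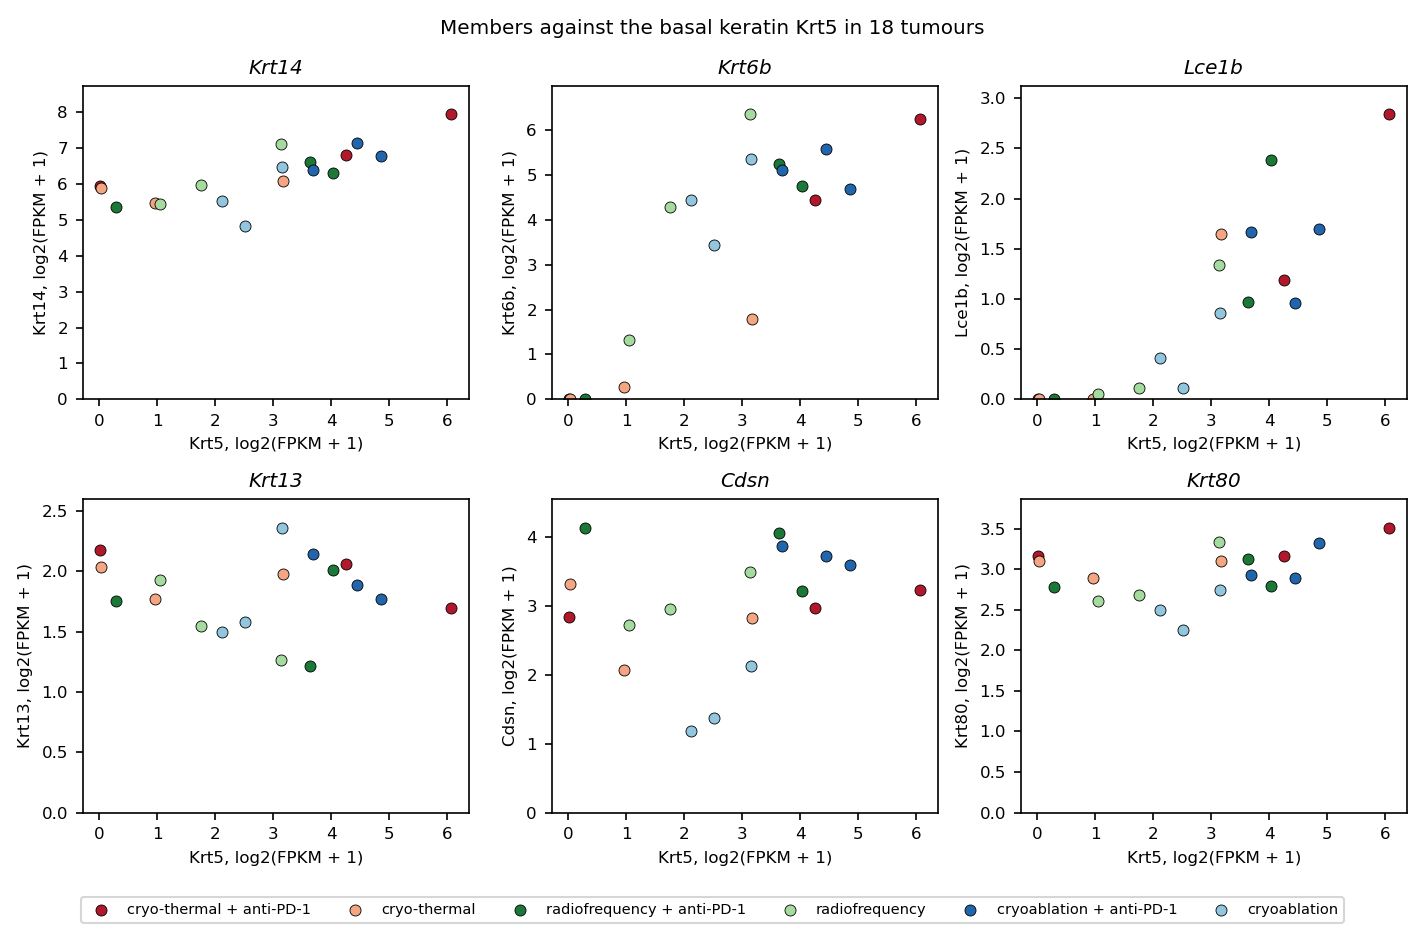
The 6 members Krt14, Krt6b, Lce1b, Krt13, Cdsn and Krt80 plotted against Krt5 in 18 tumours, both axes in log2(FPKM + 1), coloured by group. Krt6b and Lce1b reach 0 where Krt5 nears it, while Krt14, Krt13, Cdsn and Krt80 stay above 0 there.

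Of the 9 Sprr members 5 had their highest level in radiofrequency tumour 3 and 4 in cryo-thermal plus anti-PD-1 tumour 1, which also had the highest mean log2(FPKM + 1) of both the Sprr and the Lce family. Sprr1a, the most abundant, was at 33.2, 8.45 and 0.569 FPKM in cryo-thermal plus anti-PD-1 tumours and at 0.837, 3.09 and 0.830 in cryo-thermal tumours. It was at 5.13, 27.4 and 0.468 FPKM in radiofrequency plus anti-PD-1 tumours and at 11.3, 1.37 and 77.5 in radiofrequency tumours. It was at 14.6, 22.9 and 11.1 FPKM in cryoablation plus anti-PD-1 tumours and at 3.01, 19.1 and 3.31 in cryoablation tumours. The 5 with their peak in radiofrequency tumour 3 were Sprr1a, Sprr1b (35.05 FPKM), Sprr2d (24.2 FPKM), Sprr2a3 (8.78 FPKM) and Sprr2f (2.68 FPKM), and Krt6b peaked there as well. Sprr1a followed Krt6b, with r = 0.92 and rho = 0.95 (adjusted permutation p = 5e-05 each), and r = 0.90 without the 2 tumours farthest from the median of Krt6b. The Lce genes, which mark the last step of cornification, had lower levels, with means from 0.564 to 1.53 FPKM. Lce1a1, Lce1b and Lce1c led with means of 1.53, 1.28 and 1.12 FPKM, and 8 of the 11 peaked in cryo-thermal plus anti-PD-1 tumour 1. Lce1b followed Krt5 with r = 0.87 and rho = 0.90 (adjusted permutation p = 5e-05 each) and Krt6b with r = 0.66 and rho = 0.75 (adjusted permutation p = 0.0056 and 0.00163). Without the 2 farthest tumours these r were 0.86 and 0.59. The relations of Sprr1a and Lce1b were also chosen after the data were seen, so their p-values do not test a prediction. In radiofrequency tumour 3 Lce1b was at 1.54 FPKM, while cryo-thermal plus anti-PD-1 tumour 1 had 6.14. Of the remaining envelope and protease genes, Ivl (involucrin) averaged 0.612 and Casp14, a protease that processes filaggrin, 0.578 FPKM. Over these families, 20 of the 44 members shared more than 10% of their 50-base stretches with another gene, among them Sprr2a3 with 61.1% and Lce3d with 49.3%, so levels of single Sprr2 and Lce3 genes are uncertain.

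Genes of the hair follicle's inner root sheath were high in 3 tumours and low or at 0 in most others. Krt71 was at 9.39, 2.03 and 0 FPKM in cryo-thermal plus anti-PD-1 tumours and at 0, 1.17 and 0.0121 in cryo-thermal tumours. It was at 0.436, 0 and 0 FPKM in radiofrequency plus anti-PD-1 tumours and at 0, 0 and 0.120 in radiofrequency tumours. It was at 9.75, 10.2 and 0.943 FPKM in cryoablation plus anti-PD-1 tumours and at 0, 2.14 and 0.0121 in cryoablation tumours. Summed over Krt71, Krt25 and Krt27, cryo-thermal plus anti-PD-1 tumour 1 had 18.9 FPKM and cryoablation plus anti-PD-1 tumours 1 and 2 had 21.6 and 25.0, against at most 4.61 FPKM in any of the other 15. The hair cortex genes Krtap8-1 and Krtap7-1 peaked in cryoablation plus anti-PD-1 tumour 1 at 8.13 and 6.13 FPKM. Relative to Krt5, Krt71 reached 0.491 in cryoablation plus anti-PD-1 tumour 2 and was at 0 in 4 of the 14 tumours with Krt5 of at least 1 FPKM. Radiofrequency tumour 3, with the highest Krt6b and Sprr1a, had a sum of 0.180 FPKM over the 3 inner root sheath keratins. Tchh (trichohyalin), a matrix protein of the inner root sheath outside the naming rule, was at 4.54, 4.72 and 7.07 FPKM in the 3 tumours high in hair keratins. Its next highest value was 1.197 FPKM, in cryoablation tumour 2. Tchh is 1 of 15 listed hair follicle regulators and non-keratin hair genes. Their sum, led by Dlx3 with a mean of 19.01 FPKM, did not set these 3 tumours apart. It was 33.02, 34.87 and 39.79 FPKM in them, against 34.55 in cryo-thermal tumour 2 and 35.36 in cryoablation tumour 2.

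**Figure D3:**
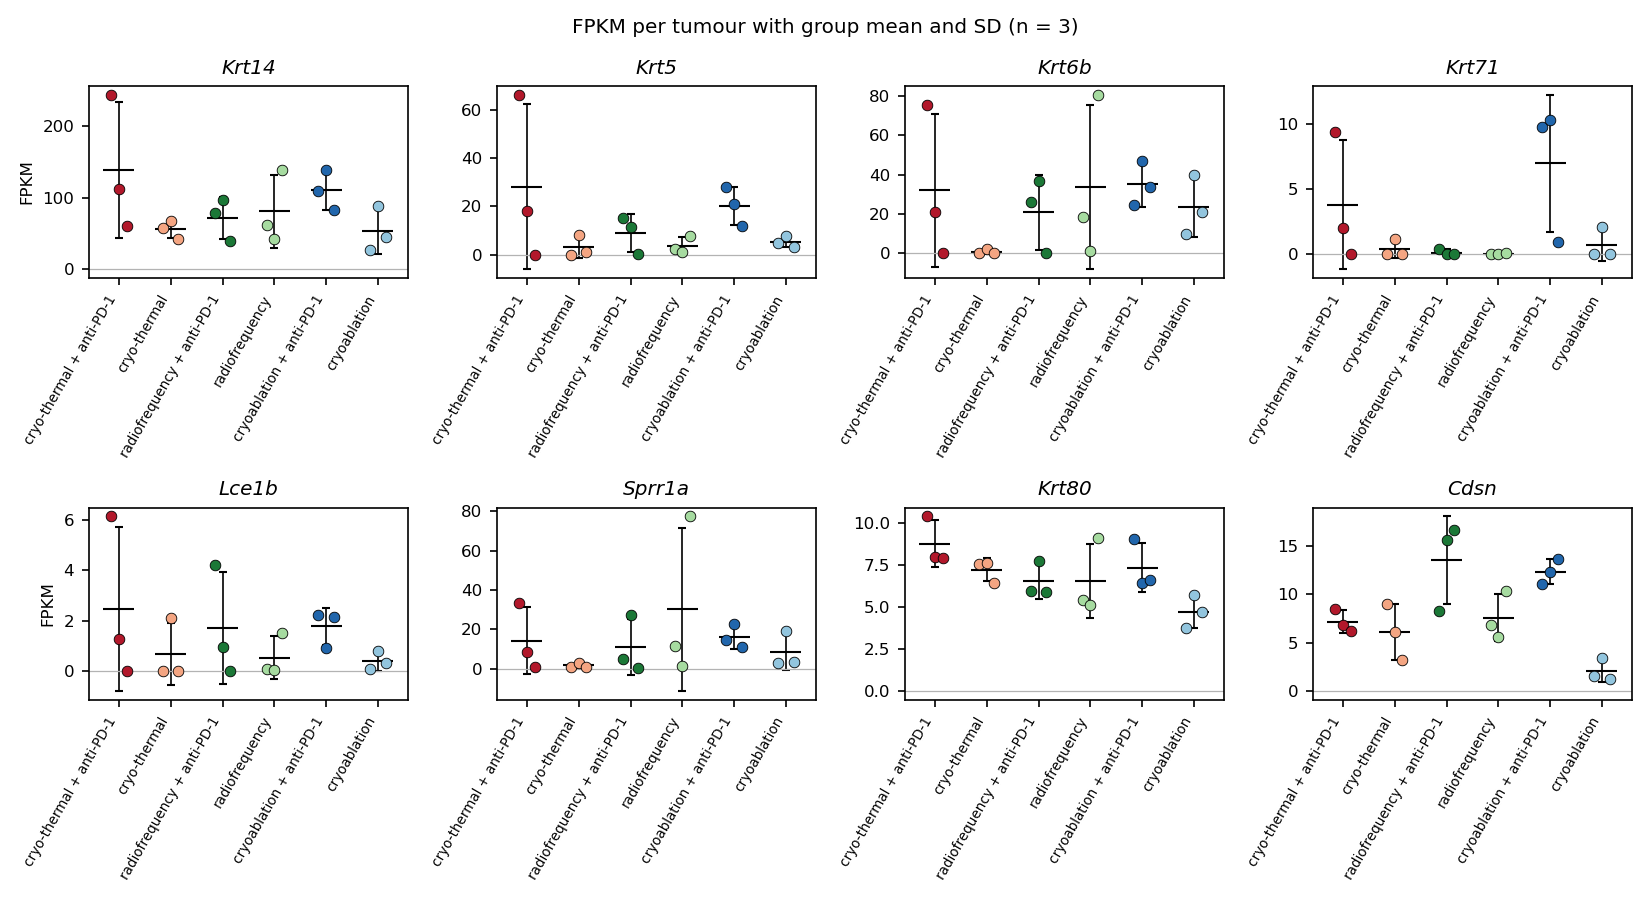
FPKM of 8 members in each tumour (points) with the group mean and SD (lines, n = 3). Krt71 is high in 3 tumours, Sprr1a and Krt6b peak in radiofrequency tumour 3 and cryo-thermal plus anti-PD-1 tumour 1, and Cdsn is lowest in the cryoablation group.

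Whether the ablations differed in these genes was tested with limma on log2(FPKM + 1) over 12587 genes. Cdsn was the one member that differed between cryo-thermal therapy and cryoablation without antibody. It was at 9.00, 6.08 and 3.21 FPKM in cryo-thermal tumours, against 1.58, 3.39 and 1.27 FPKM in cryoablation tumours, and the groups overlapped. The log2 fold change was 1.18 (SE 0.32, limma adjusted p = 0.0241). This was 1 of 44 members called higher and 0 called lower at an adjusted p under 0.05, where 8.01% of all genes were called higher and 6.96% lower. The call was lost when cryo-thermal tumour 1 or 2 or cryoablation tumour 1 or 3 was left out, with limma adjusted p from 0.0798 to 0.131. Radiofrequency tumours had 6.78, 5.62 and 10.3 FPKM of Cdsn, all above the cryoablation tumours, where 10.6% of all genes were above without overlap, with a log2 fold change of 1.5 (SE 0.32) and a limma adjusted p of 0.106.

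Of the keratins of activated epidermis and the Sprr genes, 0 passed the test between cryo-thermal and cryoablation tumours. Below every cryoablation tumour lay all cryo-thermal tumours for 9 of the 44 members, 6 Sprr genes with Krt6b, Krt16 and Krt6a, a share near that of all genes, of which 17.8% were below without overlap. Krt6b averaged 0.892 ± 1.37 FPKM in cryo-thermal tumours and 23.6 ± 15.2 FPKM in cryoablation tumours (SD, n = 3 each), a log2 difference of -3.73 (SE 1.55, limma adjusted p = 0.114). Sprr1b averaged 0.142 ± 0.136 FPKM in cryo-thermal and 5.18 ± 4.40 FPKM in cryoablation tumours (SD, n = 3 each), a log2 difference of -2.21 (SE 1.20, limma adjusted p = 0.225). Krt80 was the 1 member above without overlap (17.7% of all genes), at 7.21 ± 0.684 FPKM against 4.70 ± 0.968 FPKM (limma adjusted p = 0.0632, n = 3 each). In a fit of only these 2 groups, Krt16, Krt6a, Krt6b and Sprr1b were called lower and Cdsn was not called. The share of all genes called in that fit is not given, so these calls cannot be set against it. The median log2 difference of the members was -0.18, beside -0.01 for all genes, and its sign was not stable: it was 0.26 with array weights (29 of 44 positive, against 14), 0.01 without cryo-thermal tumour 3 and 0.02 without cryoablation tumour 2.

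Against radiofrequency ablation, limma called 0 members in cryo-thermal tumours, with 5 members at an unadjusted p under 0.05, where 0.00794% of all genes were called and 13.6% were at such a p. The same was true of radiofrequency against cryoablation, with 1 member at an unadjusted p under 0.05, where 0.00794% of all genes were called and 15.1% were at such a p. Among the antibody groups, cryo-thermal therapy against cryoablation gave 0 called members and 1 at an unadjusted p under 0.05 (4.06% and 20.7% of all genes). Cryo-thermal therapy against radiofrequency gave 0 and 3 (1.31% and 17.2% of all genes), and radiofrequency against cryoablation gave 0 and 5 (0% and 5.85% of all genes). These 5 were the inner root sheath and keratin-associated members, which reached the limit through tumours high in hair genes, and 0 of the 33 members that reach it without them were at such a p. Cdsn averaged 7.14 ± 1.18 FPKM with cryo-thermal therapy plus anti-PD-1, below each of the cryoablation plus anti-PD-1 tumours at 12.3 ± 1.29 FPKM (SD, n = 3 each), with a limma adjusted p of 0.215, where 10.4% of all genes were below without overlap.

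With anti-PD-1, all 44 members had a positive fitted mean effect (43 with a pseudocount of 0.1), and Cdsn was the member that passed the test. The count of positive members depended on single tumours. It was 36 without radiofrequency plus anti-PD-1 tumour 2, 36 without radiofrequency tumour 2 and 38 without cryo-thermal plus anti-PD-1 tumour 1. In the mean of the 3 antibody effects, Cdsn rose by 1.06 on the log2 scale (SE 0.18, limma adjusted p = 0.00589), and this call held when any one tumour was left out. The effects behind this mean were unequal: 2.17 with cryoablation, 0.74 with radiofrequency ablation (SE 0.32, limma adjusted p = 0.375) and 0.28 with cryo-thermal therapy (SE 0.32, limma adjusted p = 0.75). It was 1 of 44 members called higher and 0 called lower, where 5.28% of all genes were called higher and 4.75% lower. In the same comparison 4 of 7 tested skeletal muscle genes rose, and their part in the result was not tested. The estimates of the 44 members had a median of 0.74, beside -0.00 for all genes. For members that reach the limit only through the tumours high in hair genes, a higher level with the antibody was built into their choice. The 33 others all had a positive estimate as well, where 6233 of 12587 genes did. Of the 33 members that reach the limit without the 3 tumours high in hair genes, 10 had an unadjusted p under 0.05, where 28.5% of all genes did, and the median estimate of the 33 was 0.72. With those 3 tumours left out of the fit, 39 of 44 members were positive with a median of 0.31, and 1 was called. Without cryo-thermal plus anti-PD-1 tumour 3, where 31 members were at 0, 14 members were called higher, of which 7 were among those 33: Cdsn, Krt5, Krt15, Krt79, Lce1c, Lce1f and Sprr4. The count was 4 without radiofrequency plus anti-PD-1 tumour 3 (2 of the 33), 2 without radiofrequency tumour 3 (2 of the 33) and 6 without cryoablation plus anti-PD-1 tumour 3 (1 of the 33). Shares of all genes called in these refits are not given, and the 5.28% belongs to the full fit, so the counts cannot be set against it. The numbers for the members are not independent of one another, since most of them were high and low in the same tumours.

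The antibody estimates differed in size by ablation, though not by test for any member. With cryoablation, 38 of 44 members were positive with a median of 0.87, and 13 lay above without overlap (10 of the 33 that do not depend on the tumours high in hair genes), where 13.6% of all genes did. Cdsn was at 11.1, 12.3 and 13.7 FPKM with the antibody, against 1.58, 3.39 and 1.27 FPKM without, and rose by 2.17 on the log2 scale (SE 0.32, limma adjusted p = 0.0112). It was the 1 member called higher, where 1.79% of all genes were called higher and 2.53% lower, and 5 of the 33 members that reach the limit without the tumours high in hair genes had an unadjusted p under 0.05, where 24.4% of all genes did. The call ended without cryoablation tumour 1 (limma adjusted p = 0.082) and without the 3 tumours high in hair genes, where 1 tumour with the antibody is left and is assumed to vary as the other groups do (estimate 2.31, limma adjusted p = 0.265). Krt71 averaged 6.98 ± 5.24 FPKM with the antibody and 0.716 ± 1.23 FPKM without (SD, n = 3 each), which is given with no test, since it is a member through 2 of these tumours. Lce1f averaged 2.34 ± 0.675 FPKM with the antibody and 0.296 ± 0.417 FPKM without, and did not overlap (limma adjusted p = 0.121, n = 3 each). Without cryoablation plus anti-PD-1 tumour 3, 4 members were called higher, of which Cdsn alone was among the 33, with the share of all genes in that refit not given.

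With cryo-thermal therapy, 44 of 44 members had a positive antibody estimate with a median of 1.00, yet limma called 0 of them, with 2 at an unadjusted p under 0.05, where 0.373% of all genes were called and 13% were at such a p. With array weights, which give tumours unequal weight, 17 members were called (12 of the 33) and the median was 0.69. The share of all genes called with these weights is not given, so the 17 cannot be set against 0.373%. The spread was wide: Krt5 averaged 28.2 ± 34.3 FPKM with the antibody and 3.00 ± 4.39 FPKM without (SD, n = 3 each). Without cryo-thermal plus anti-PD-1 tumour 1, which held the highest value of 27 of the 44 members, the median was 0.38. With radiofrequency ablation, 28 of 44 members were positive with a median of 0.10, 0 were called and 1 had an unadjusted p under 0.05, where 0.0477% of all genes were called and 11.6% were at such a p. Of the 9 Sprr genes there, 8 had a negative estimate, Sprr2d averaging 1.91 ± 3.31 FPKM with the antibody and 10.3 ± 12.4 FPKM without (limma adjusted p = 0.568, n = 3 each), the group without being led by radiofrequency tumour 3. Leaving out radiofrequency plus anti-PD-1 tumour 1 made the median of the 44 members -0.09, and leaving out radiofrequency tumour 2 made it -0.02.

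Differences between antibody effects called 0 members in limma. For Cdsn the effect with cryo-thermal therapy minus that with cryoablation was -1.90 on the log2 scale (SE 0.45, limma adjusted p = 0.0942), where 0.167% of all genes were called. At an unadjusted p under 0.05 stood 1 member and 13.4% of all genes. The radiofrequency effect against the cryoablation effect and the cryo-thermal effect against the radiofrequency effect each had 0% of all genes called, with 7.6% and 7.23% at an unadjusted p under 0.05, and Cdsn at -1.43 and -0.47 (SE 0.45 each, limma adjusted p = 0.626 and 0.893). Cdsn had no detectable relation to the basal keratin across tumours, with r = 0.22 and rho = 0.32 against Krt5 (adjusted permutation p = 0.452 and 0.248). Its neighbour on chromosome 17, Psors1c2, ran from 0.355 to 1.46 FPKM. Krt80 had r = 0.39 and rho = 0.43 against Krt5 (adjusted permutation p = 0.146 and 0.117), r = 0.63 without the 2 tumours farthest from the median of Krt5, and r = 0.11 without the 3 tumours high in hair genes. The relations of Cdsn and Krt80 with Krt5 were also chosen after the data were seen.

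**Figure D4:**
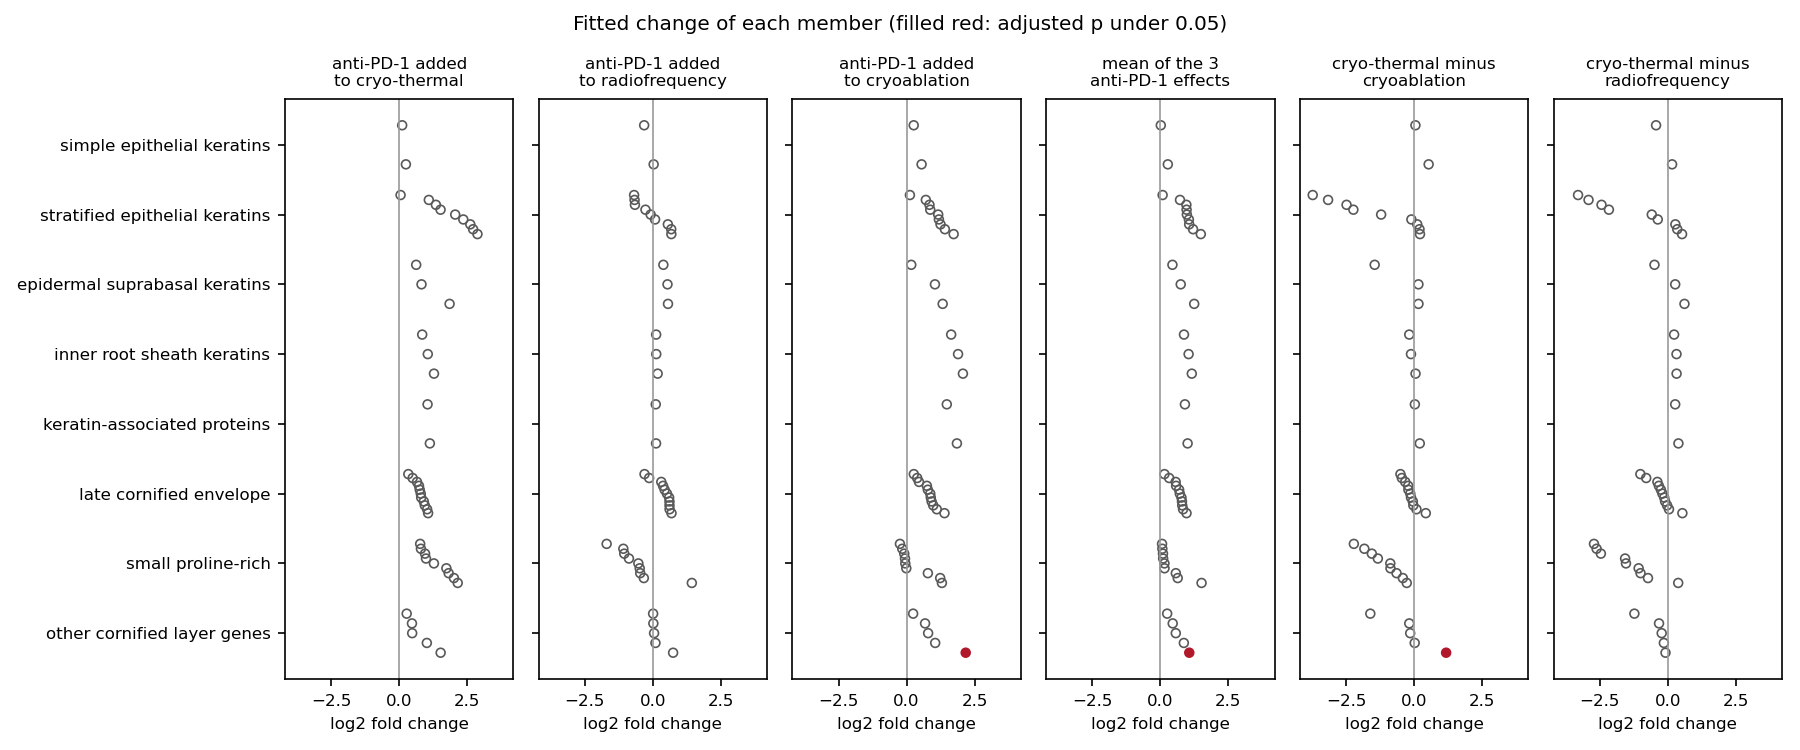
Fitted log2 fold change of each of the 44 members in 6 comparisons, by class, with calls at an adjusted p under 0.05 in red. Cdsn is the point called in the mean antibody effect, in cryoablation and between cryo-thermal therapy and cryoablation. The mean antibody effect is above 0 for all 44, part of which reached the limit only through tumours that had received the antibody.

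Other genes of skin and its surroundings were read from 8 lists. Of 19 further cornification genes that the table held, 9 were tested, led by Asprv1 (8.60 FPKM), Dmkn (7.54) and Klk7 (5.08), and limma called 0 in each of the 13 comparisons, with 0 at an unadjusted p under 0.05. Their sum ran from 1.92 to 136 FPKM in cryo-thermal plus anti-PD-1 tumours and from 2.29 to 26.9 in cryo-thermal tumours. It ran from 2.33 to 52.9 FPKM in radiofrequency plus anti-PD-1 tumours and from 4.32 to 92.2 in radiofrequency tumours, and from 34.4 to 64.4 in cryoablation plus anti-PD-1 tumours and from 11.6 to 33.2 in cryoablation tumours. The 4 lowest sums, all under 3 FPKM, were in the 3 tumours with Krt5 under 0.5 FPKM and in cryo-thermal tumour 3. Of 7 basal epidermis genes tested 0 were called in any comparison, and of 2 melanocyte genes 0, with Tyr, Tyrp1, Dct, Pmel and Mlana each at or under 0.191 FPKM in all tumours. Of 7 hair follicle regulators tested, Lef1 and Msx2 rose in the mean antibody effect (0.33 and 0.34 on the log2 scale, limma adjusted p = 0.0198 and 0.0464), and Lef1 fell in cryo-thermal against cryoablation tumours without antibody by 0.54. Of 4 tested genes of sebaceous gland and fat, Scd1 rose with anti-PD-1 in cryoablation by 0.35.

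Part of the skeletal muscle genes also rose with the antibody. Of the 7 tested, 4 passed the test in the mean antibody effect (Acta1, Mylpf, Actn3 and Myl1), where 5.28% of all genes were called higher. Acta1 rose by 1.66 (SE 0.37, limma adjusted p = 0.0152), and all 7 estimates were positive. By ablation, 7 were positive with cryoablation (median 1.05) and 7 with radiofrequency ablation (median 1.75). With cryo-thermal therapy, 2 of the 7 were positive and the median was -0.30. The sum over 8 muscle genes ran from 15.5 to 42.6 FPKM in cryo-thermal plus anti-PD-1 and from 16.0 to 77.9 in cryo-thermal tumours. It ran from 41.2 to 95.7 FPKM in radiofrequency plus anti-PD-1 and from 4.02 to 29.6 in radiofrequency tumours, and from 54.2 to 69.5 in cryoablation plus anti-PD-1 and from 18.8 to 24.0 in cryoablation tumours. Ckm was listed at 0 in 1 tumour, and no other of these 8 was at 0 in any. Of 5 tested genes of simple epithelium and carcinoma, Cdh1 rose in the mean antibody effect by 0.48 (SE 0.06, limma adjusted p = 0.00293). Without antibody, Cdh1 was lower in cryo-thermal than in cryoablation tumours, with a log2 difference of -0.38 (SE 0.11, limma adjusted p = 0.0292). Spint1 was higher in cryo-thermal than in cryoablation tumours, by 0.77 without and 0.86 with the antibody (limma adjusted p = 0.0205 and 0.0318). Of 7 mesenchymal genes, Pdgfra fell by 0.39 in the mean antibody effect, and Pdgfra and Zeb1 were lower in cryo-thermal than in cryoablation tumours without antibody, with log2 differences of -0.62 and -0.40 (limma adjusted p = 0.0297 and 0.0169).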

How the data were processed

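RNA from 18 mouse tumours, 3 in each of 6 groups, was extracted with TRIzol and silica columns and made into libraries with a VAHTS Universal V6 kit, per the labels' protocols. The authors deposited 1 table of FPKM values with a column per tumour, 26538 genes in all. The submitters' processing notes name HTSeq 0.11.2. Not given in the sources used here are strand, aligner, genome build, annotation and filters. FPKM sums ran from 408042 to 442383 per tumour. The table holds no counts, so depth is unknown and no counting interval is given; relative depth, estimated from the steps between low values, ran from 0.983 to 1.019. No pair of columns was identical.

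All tests used log2(FPKM + 1), which understates changes of low genes. limma 3.58.1 in R 4.3.3, with variances that follow the mean level, was fitted to all 18 tumours with a mean per group over the 12587 genes with a mean of at least 0.5 FPKM, 2-sided, with Benjamini-Hochberg adjustment over those genes and a threshold of 0.05; the script was tested on simulated data. Of the 13 comparisons, 9 were between 2 groups, 1 was the mean antibody effect and 3 were differences of antibody effects. They share tumours and were not adjusted for each other. With 3 against 3, an exact permutation test cannot give a p under 0.1. Correlations used 100000 permutations and Benjamini-Hochberg adjustment over 15 relations, 6 planned and 9 added after the data were seen. Scaling changed the median of all genes by under 0.1. Promoters were taken from RefSeq (GRCm38.p6), and shared 50-base stretches from GENCODE vM21 transcripts. Tables, correlations and figures were made in Python 3.11.15 (scipy 1.17.1, numpy 2.4.6, pandas 2.3.3, matplotlib 3.10.9).

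The members, their classes and the 8 other lists, with 88 of 89 entries found, were chosen with earlier results of these data known. Genes named are the 3 most abundant of each class, members past the threshold, the rows next to the limit, and the leading or called genes of the other lists; some members with extreme or non-overlapping values were named after they were seen. Alternatives were the pseudocount, the filter, TPM and median-ratio scaling, a replicate block, array weights, a fit of only the groups compared, and leaving out tumours.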

Additional observations from a re-analysis of the deposited data

Results flagged for a closer look

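Cdh1 (E-cadherin), from the list of simple epithelial and carcinoma genes, was the gene among the members and the 8 lists whose antibody effects differed between ablations. Its effect with cryo-thermal therapy was above that with cryoablation by 0.86 on the log2 scale (SE 0.15, limma adjusted p = 0.0379). It averaged 4.96 ± 0.308 FPKM with cryo-thermal therapy plus anti-PD-1 and 2.09 ± 0.294 FPKM with cryo-thermal therapy alone, while it averaged 3.26 ± 0.194 FPKM with cryoablation plus anti-PD-1 and 3.01 ± 0.382 FPKM with cryoablation alone (SD, n = 3 each). Without antibody it was lower in cryo-thermal than in cryoablation tumours (limma adjusted p = 0.0292).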

How the results depend on the processing

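Of the alternative values for the 13 counts of members called and the 6 planned correlations, 240 kept their direction and side of the threshold or stayed within 1.5 times the count. Of the others, 29 moved, 3 were weaker, 1 was stronger and 1 was reversed. Counts of 0 that stayed at 0 are among the 240, so that number says little about the counts above 0. Between cryo-thermal therapy and cryoablation, 1 member was called, against 0 without a filter on low values, 3 with array weights, 0 without the 3 tumours with most members at 0, 4 when the fit held those groups alone, and 0 to 1 when a tumour was left out. With radiofrequency against cryoablation the count of 0 became 1 with array weights and 0 to 1 with a tumour left out. Array weights also gave 1 (Cdsn, lower) in cryo-thermal plus anti-PD-1 against cryoablation plus anti-PD-1, 1 (Cdsn, lower) against radiofrequency plus anti-PD-1, 17 in place of 0 for anti-PD-1 added to cryo-thermal therapy, and 1 in place of 0 for its difference from the cryoablation effect, which was 0 to 1 with a tumour left out. For anti-PD-1 added to cryoablation, 1 became 3 with array weights, 0 without the 3 tumours high in hair genes, 6 when the fit held those groups alone, and 0 to 4 with a tumour left out. For the mean antibody effect, 1 became 2 with a mean limit of 1 FPKM, 3 with the replicate block, 7 with array weights, 14 without the 3 tumours with most members at 0, and 1 to 14 with a tumour left out. Array weights turned the median log2 difference of the members between cryo-thermal and cryoablation tumours to 0.26. The cause of these shifts was not tested. Shares of all genes called are given for the main fit alone, so the counts under other settings cannot be set against them. Of 27 same-numbered pairs of tumours, 9 had deviations correlated above 0.1, the 27 running from -0.441 to 0.591. Every pair was above 0.1 in 0 of 9 comparisons. Between cryo-thermal plus anti-PD-1 and radiofrequency plus anti-PD-1 tumours, r was 0.50, 0.06 and 0.59 for numbers 1, 2 and 3. Whether tumours of the same number shared their handling was not tested. Apart from the mean antibody effect, the replicate block changed no count beyond 1.5 times. Leaving out the 2 tumours farthest from the median gave r of 0.36 for Krt8 and Krt18, 0.23 for Krt8 and Krt7, 0.18 for Krt8 and Krt19, -0.20 for Krt8 and Epcam and 0.12 for Krt5 and Krt13, the last 2 with the sign turned; deviations from group means gave 0.54 for Krt8 and Krt14. Without the filter, limma lost the call of Cdsn in cryo-thermal against cryoablation tumours (adjusted p = 0.0600). FPKM without counts, 3 tumours a group and many members at 0 limit what these tests can show; fold changes of members at 0 in 1 group depend on the pseudocount, and the median of the mean antibody effect was 1.17 with a pseudocount of 0.1.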
